A study of Homo sapiens with 12 samples.

Results

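The genes described here are 8 receptors for myeloid growth factors, KIT, FLT3, CSF1R, MERTK, IGF1R, CSF3R, CSF2RB and IL3RA, taken by name from the 20030 genes of an mRNA-seq table of JOA-treated leukemia cells. All 8 genes were found in the table. In THP-1 cells, KIT fell to 0.37 of its control level with JOA on the log2(FPKM + 0.1) scale. It passed the test, but not with any 1 library left out, where 0 to 1 of all genes tested passed. FLT3 did not pass, though it was lower in every treated library than in any control library, as were 8.81% of all genes tested. MERTK was higher in all 3 same-numbered pairs of libraries, with overlapping groups, and passed only when the pairs were used as a block. In MOLM-13 cells, 5 of the 8 genes were high enough to be tested. None of these passed, and neither did any other of the 11693 genes tested.

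KIT and FLT3 are receptor tyrosine kinases of hematopoietic stem and progenitor cells, and CSF1R is their relative on monocytes and macrophages. MERTK belongs to the TAM family, whose ligands GAS6 and protein S bridge it to dying cells, and IGF1R is the receptor for insulin-like growth factors. CSF3R, CSF2RB and IL3RA have no kinase of their own and signal through JAK kinases bound to their tails: CSF3R binds G-CSF, while CSF2RB is the beta chain shared by the receptors for GM-CSF, IL-3 and IL-5, and IL3RA is the alpha chain that binds IL-3.

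The cells were of the established human acute myeloid leukemia lines MOLM-13 and THP-1, both with a rearranged MLL gene (KMT2A). MOLM-13 cells also carry an internal tandem duplication of FLT3, which a value per gene cannot show. JOA, Jiyuan oridonin A, is a diterpenoid of the ent-kaurene class. JOA was given at 0.5 μM to MOLM-13 cells and at 2 μM to THP-1 cells for 48 h, and the controls of each line received DMSO for the same time. Each of the 4 groups held 3 libraries. Since the dose differed with the cell line, the line and the dose cannot be told apart where the JOA responses of the lines are compared. The sources used here do not say whether the replicates were separate cultures, so the p-values measure only the spread between these libraries. The values are FPKM, in which the fragments of a gene are divided by its length and by the mapped fragments of the library, so levels of different genes can be compared per length. Total depth is unknown. If the libraries of a line differ in depth by a ratio between 0.67 and 1.49, the range searched, their relative depth, read from the steps between low values, was 0.89 to 1.0 of the first control in MOLM-13 cells and 0.93 to 1.07 in THP-1 cells. Since whole cultures were measured, fewer cells with a transcript and less of it per cell cannot be told apart.

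The stretches of DNA directly upstream of the first annotated exon of KIT, FLT3 and MERTK are shown because these genes differed most between the JOA and control libraries of THP-1 cells. They were cut from RefSeq promoter windows on GRCh38.p14 and are written 5′ to 3′ on the strand of the gene, with the GC box letters GGGCGG, or CCGCCC where they lie on the other strand, in capitals.
KIT: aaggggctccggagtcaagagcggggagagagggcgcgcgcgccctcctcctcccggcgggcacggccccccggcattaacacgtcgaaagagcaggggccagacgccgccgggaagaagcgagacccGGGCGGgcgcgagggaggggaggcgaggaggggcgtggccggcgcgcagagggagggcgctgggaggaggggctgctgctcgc
FLT3: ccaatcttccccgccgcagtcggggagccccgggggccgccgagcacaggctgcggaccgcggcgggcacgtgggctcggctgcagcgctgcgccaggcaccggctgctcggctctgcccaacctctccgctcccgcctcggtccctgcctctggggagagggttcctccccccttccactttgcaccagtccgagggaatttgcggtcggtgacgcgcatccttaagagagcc
MERTK: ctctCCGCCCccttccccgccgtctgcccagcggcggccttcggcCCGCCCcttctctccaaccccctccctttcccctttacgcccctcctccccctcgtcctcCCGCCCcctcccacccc
The KIT stretch lies at chr4:54657707-54657917 on the plus strand, the FLT3 stretch at chr13:28100593-28100826 on the minus strand, and the MERTK stretch at chr2:111898357-111898478 on the plus strand. GGGCGG was found 1 time in the 211 bases of KIT, 0 times in the 234 bases of FLT3 and 3 times in the 122 bases of MERTK. It was present on either strand in 40.7%, 41.9% and 34.2% of 34796 distinct RefSeq promoter windows cut to these lengths, with 1 chromosome left out. Unlike the 3 stretches, these windows were not cut at exons. The GC content was 76.3% for KIT, 71.8% for FLT3 and 75.4% for MERTK, above the medians of 58.8%, 58.5% and 59.8% at the same lengths. The ETS core GGAA occurred 1, 4 and 2 times, and 89.4%, 91.6% and 73.7% of these windows held it. GATA was found in none of the 3 stretches and in 40.1%, 43.4% and 25.2% of the windows. The TATA box letters TATAAA were in none of the stretches and in 9.17%, 10.1% and 5.73% of the windows. All 4 letter strings were searched on both strands.

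The untreated lines held the receptors at different levels. In MOLM-13 control cells, FLT3 was at 88.2 ± 10.7 FPKM (SD, n = 3), a mean above that of 97.5% of all genes, followed by CSF3R at 26.4 ± 1.71, CSF1R at 4.59 ± 0.367, CSF2RB at 3.07 ± 0.369 and IGF1R at 0.672 ± 0.0819 FPKM. IL3RA, KIT and MERTK each had a mean below 0.1 FPKM there, and no neighbours in the order from FLT3 to IGF1R overlapped. In THP-1 control cells, CSF1R at 17.6 ± 2.36 and FLT3 at 15.7 ± 2.31 FPKM overlapped at the top, followed by CSF3R at 10.7 ± 2.5, CSF2RB at 4.43 ± 0.244, IGF1R at 2.48 ± 0.0247, KIT at 1.59 ± 0.361 and MERTK at 0.546 ± 0.215 FPKM. No other neighbours in this order overlapped, and IL3RA, listed at 0 in some libraries, was given no place in it.

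**Figure D1:**
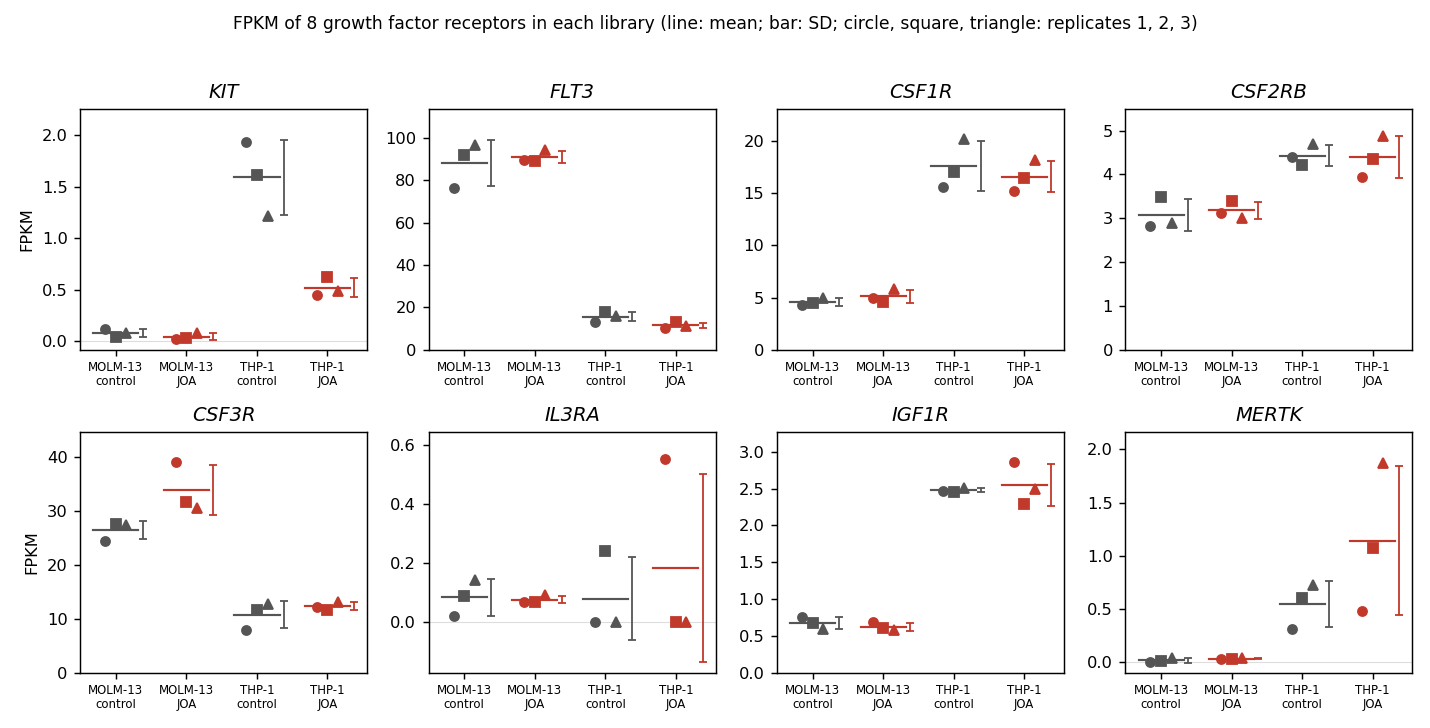
FPKM of the 8 receptors in each of the 12 libraries, with control in grey and JOA in red; the horizontal line is the group mean, the bar beside it the SD, and the circle, square and triangle are replicates 1, 2 and 3. Each panel has its own linear axis, and in THP-1 cells the control libraries stand clear of the JOA libraries for KIT (1.21 to 1.93 against 0.445 to 0.623) and for FLT3 (13.2 to 17.8 against 10.5 to 12.9).

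Between the untreated lines, 5 receptors lay above the filter on low values, a mean of 0.1 FPKM, in both lines. Of these, 4 were called, CSF1R and IGF1R higher and FLT3 and CSF3R lower in THP-1 cells. Of all 12635 genes tested, 44.0% were called, 25.0% higher and 19.0% lower. A call required an adjusted p under 0.05 by limma and a log2 fold change of at least 0.58 in size on the log2(FPKM + 0.1) scale. CSF1R was higher in THP-1 control cells by 1.91 (SE 0.11, adjusted p = 1.41e-06) and IGF1R by 1.74 (SE 0.12, adjusted p = 4.03e-06) on that scale, the latter by 1.06 with a pseudocount of 1. FLT3 had a log2 fold change of -2.49 (SE 0.12, adjusted p = 7.51e-07) and CSF3R of -1.32 (SE 0.16, adjusted p = 0.00012). CSF2RB passed the adjusted p of 0.00227 but not the fold threshold, with a log2 fold change of 0.52 (SE 0.1), and it passed both, at 0.61, when MOLM-13 control replicate 2 was left out. KIT and MERTK passed the filter only through THP-1 cells, the line where they are high, so they are not counted among the calls. Their log2 fold changes, 3.21 for KIT and 2.43 for MERTK, moved with the pseudocount, to 1.25 and 0.6 at a pseudocount of 1 and 4.19 and 4.64 at one of 0.01. IL3RA lay below the filter over both lines.

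With JOA, KIT was the receptor with the clearest difference in THP-1 cells. Control replicates 1, 2 and 3 held KIT at 1.93, 1.61 and 1.21 FPKM, and the JOA replicates held it at 0.445, 0.623 and 0.489 FPKM. The lowest control library was thus above the highest JOA library, as in 8.81% of all genes tested. KIT fell by 1.43 on the log2 scale (SE 0.19, 95% interval -1.87 to -1.0, limma adjusted p = 0.0394), and the JOA value was 23.0%, 38.7% and 40.3% of the control value with the same replicate number. It was 1 of 17 genes called, 0.134% of the 12712 genes tested. The adjusted p rose to between 0.0597 and 0.217 when any 1 of the 6 libraries was left out, with a fold change of -1.6 to -1.29, so that the call was lost each time. In these fits 0 to 1 of all genes tested were called, so the loss was not particular to KIT. With a pseudocount of 1 the fold change was -0.76. The call was also lost without the filter on low values (adjusted p = 0.0917) and without the mean-variance trend (adjusted p = 0.105). Almost no gene was called in those fits either. In a fit with a block for the replicate number, which pairs each JOA library with its control, KIT had an adjusted p of 0.00804, and it stayed between 0.0023 and 0.0045 when any 1 pair was left out.

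In THP-1 cells with JOA, KIT at 0.519 ± 0.0928 FPKM (SD, n = 3) still lay above MOLM-13 control cells, where the libraries were at 0.121, 0.0417 and 0.0839 FPKM. The mean of KIT exceeded that of 53.5% of all genes in THP-1 control cells and of 45.3% with JOA. KIT lay above MERTK in THP-1 control cells, and the ranges of these genes overlapped in the treated cells.

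FLT3 in THP-1 cells was at 13.2, 17.8 and 16.1 FPKM in control and at 10.5, 12.9 and 11.4 FPKM in JOA libraries. The groups did not overlap, as in 23.4% of all genes tested and, with JOA lower, 8.81%. The log2 fold change was -0.43 (SE 0.12, 95% interval -0.7 to -0.15, limma adjusted p = 0.136), which missed the adjusted p and the fold threshold. The pairs agreed closely in size, since the JOA value was 79.5%, 72.8% and 70.8% of that in the same-numbered control. With the replicate block the standard error shrank to 0.05 and the adjusted p was 0.00857, a level that 8.06% of all genes passed at any fold, and it was 0.00278 to 0.0177 with any 1 pair left out.

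MERTK, the receptor through which macrophages engulf dying cells, was at 0.309, 0.603 and 0.728 FPKM in THP-1 control libraries and at 0.48, 1.07 and 1.88 FPKM in JOA libraries. The groups overlapped, although each JOA library was above its own control, at 155%, 178% and 258% of it. Without the block the log2 fold change of 0.83 was not called (SE 0.44, 95% interval -0.19 to 1.85, limma adjusted p = 0.386). With the block MERTK was called (SE 0.17, 95% interval 0.44 to 1.23, adjusted p = 0.0301), beside 1.27% of all genes, of which KIT was another. Without the block, the fold change was 0.41 without JOA replicate 3, 0.53 without control replicate 1 and 1.3 without JOA replicate 1, and it was 0.43 with a pseudocount of 1. The paired call was lost without replicate pair 3, at a log2 fold change of 0.62 and an adjusted p of 0.0965. The whole difference took place at low level, between 0.546 ± 0.215 and 1.14 ± 0.701 FPKM (SD, n = 3).

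**Figure D2:**
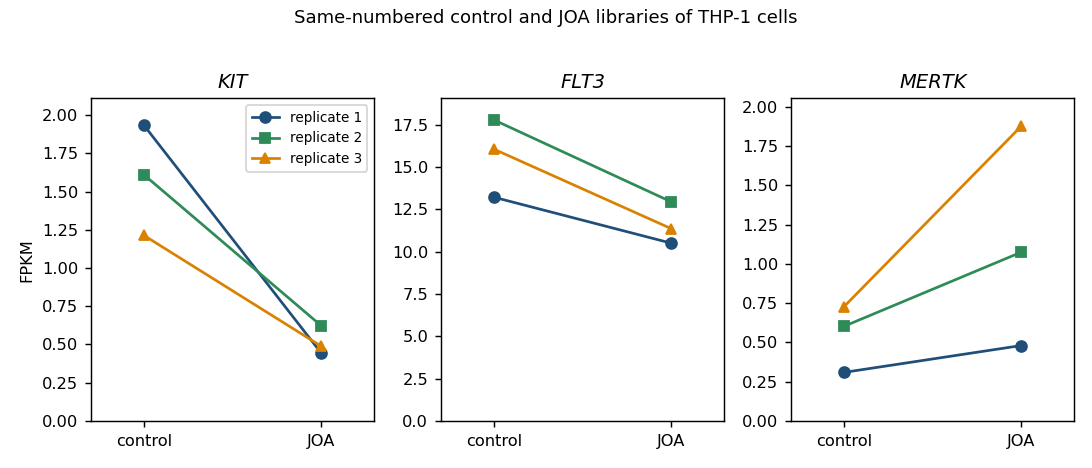
FPKM of KIT, FLT3 and MERTK in THP-1 cells, on linear axes that start at 0, with a line from each control library to the JOA library of the same replicate number. All 3 lines slope down for KIT and FLT3 and up for MERTK, while the MERTK lines start at different levels.

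The other kinase receptors of THP-1 cells had small differences. CSF1R, the receptor for M-CSF and IL-34, was at 15.6, 17.0 and 20.2 FPKM in control and at 15.2, 16.5 and 18.2 FPKM in JOA libraries. Its log2 fold change was -0.08 (95% interval -0.31 to 0.16, limma adjusted p = 0.763), and it turned to 0.03 without control replicate 3. IGF1R was at 2.48 ± 0.0247 FPKM in control and 2.55 ± 0.29 FPKM in JOA cells (SD, n = 3). The log2 fold change of IGF1R was 0.03 (95% interval -0.2 to 0.26, limma adjusted p = 0.904), and it was -0.05 without JOA replicate 1. For both genes the groups overlapped, and the intervals left out a change as large as that of KIT.

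Among the cytokine receptors of THP-1 cells, CSF3R was at 7.9, 11.6 and 12.7 FPKM in control and at 12.1, 11.6 and 13.0 FPKM in JOA libraries. The 154% of control in the first pair stood against 100% and 103% in the others. The log2 fold change of CSF3R was 0.22 (95% interval -0.15 to 0.59, limma adjusted p = 0.531). CSF2RB, the shared beta chain, was at 4.43 ± 0.244 and 4.4 ± 0.471 FPKM (SD, n = 3), with a log2 fold change of -0.01 (95% interval -0.23 to 0.2, adjusted p = 0.964) that was 0.03 without control replicate 3 and 0.06 without JOA replicate 1.

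IL3RA could not be read as a level in THP-1 cells. It was listed at 0 in 4 of the 6 libraries and at 0.243 FPKM in control replicate 2 and 0.552 FPKM in JOA replicate 1 (limma adjusted p = 0.884). The gene lies in pseudoautosomal region 1, with copies on chromosomes X and Y that share the coordinates 1336616 to 1382689 on GRCh38. Other genes of the region also changed widely within a group. CD99 was at 0.207, 8.07 and 5.16 FPKM in THP-1 control libraries, and CSF2RA, the alpha chain of the GM-CSF receptor that pairs with CSF2RB, was at 0.0422, 0.0577 and 1.72 FPKM in MOLM-13 control libraries. Of the 15 genes listed for the region, 7 reached 0.5 FPKM in a library, and 6 of these (85.7%) varied at least 4-fold within a group, against 119 of 5570 genes (2.14%) with the same range of highest values. How reads of the copies were assigned was not tested, so no level or difference is read from IL3RA or CSF2RA here.

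**Figure D3:**
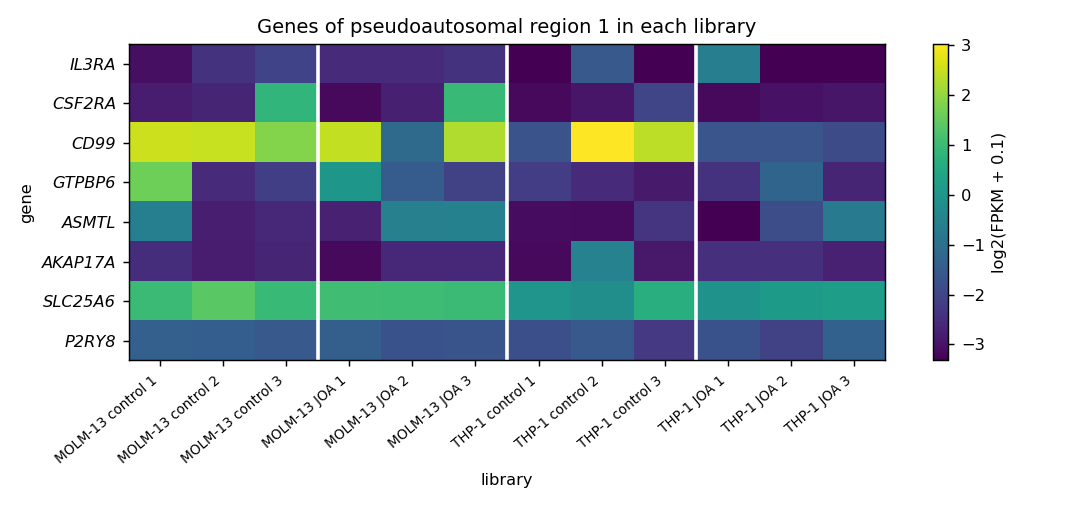
Level of 8 genes of pseudoautosomal region 1 in the 12 libraries, as log2(FPKM + 0.1) on a colour scale; white lines part the groups. IL3RA, CSF2RA, CD99, GTPBP6, ASMTL and AKAP17A jump between libraries of 1 group, while SLC25A6 and P2RY8 hold a steadier level.

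In MOLM-13 cells, 0 of the 5 receptors tested were called with JOA, where 0.0% of all 11693 genes were called by limma with or without the block and 481 genes (4.11%) had an unadjusted p under 0.05. CSF3R, the G-CSF receptor, was at 24.5, 27.5 and 27.4 FPKM in control and at 39.0, 31.6 and 30.6 FPKM in JOA libraries. It was the receptor whose groups did not overlap in this line, as in 9.65% of all genes tested and, with JOA higher, 5.1%. Its log2 fold change was 0.34 (SE 0.1, 95% interval 0.12 to 0.57, limma adjusted p = 1.0, and 0.352 with the block). The JOA libraries of CSF3R stood at 160%, 115% and 112% of their controls.

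FLT3 in MOLM-13 cells was at 76.2, 92.1 and 96.4 FPKM in control and at 89.7, 88.9 and 94.4 FPKM in JOA libraries. The groups overlapped, and the log2 fold change was 0.05 (95% interval -0.16 to 0.26, limma adjusted p = 1.0), or -0.05 without control replicate 1. The interval did not reach the size of the difference in THP-1 cells. CSF1R was at 4.59 ± 0.367 and 5.12 ± 0.618 FPKM, with a log2 fold change of 0.15, CSF2RB at 3.07 ± 0.369 and 3.18 ± 0.2 FPKM, with one of 0.05, and IGF1R at 0.672 ± 0.0819 and 0.621 ± 0.0576 FPKM (SD, n = 3), with one of -0.1. All these groups overlapped, and the adjusted p was 1.0 for each.

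KIT, MERTK and IL3RA lay below the filter in MOLM-13 cells and were read from the same fit over 15403 genes with any value above 0. KIT was at 0.121, 0.0417 and 0.0839 FPKM in control and at 0.0243, 0.033 and 0.0828 FPKM in JOA libraries, which overlapped (log2 fold change -0.31, 95% interval -0.83 to 0.21, limma adjusted p = 0.993). At this level a change of KIT as large as that in THP-1 cells would be flattened by the pseudocount of 0.1. In whole steps of the lowest value, MERTK corresponded to 0, 1 and 4 fragments in control and to 3, 3 and 4 fragments in JOA libraries if the lowest value is a single fragment, and IL3RA to 1, 4 and 6 and to 3, 3 and 4 fragments. At so few fragments no difference was detectable for MERTK, and none was read from IL3RA, for which the assignment of reads was not tested. For KIT no whole steps were found.

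**Figure D4:**
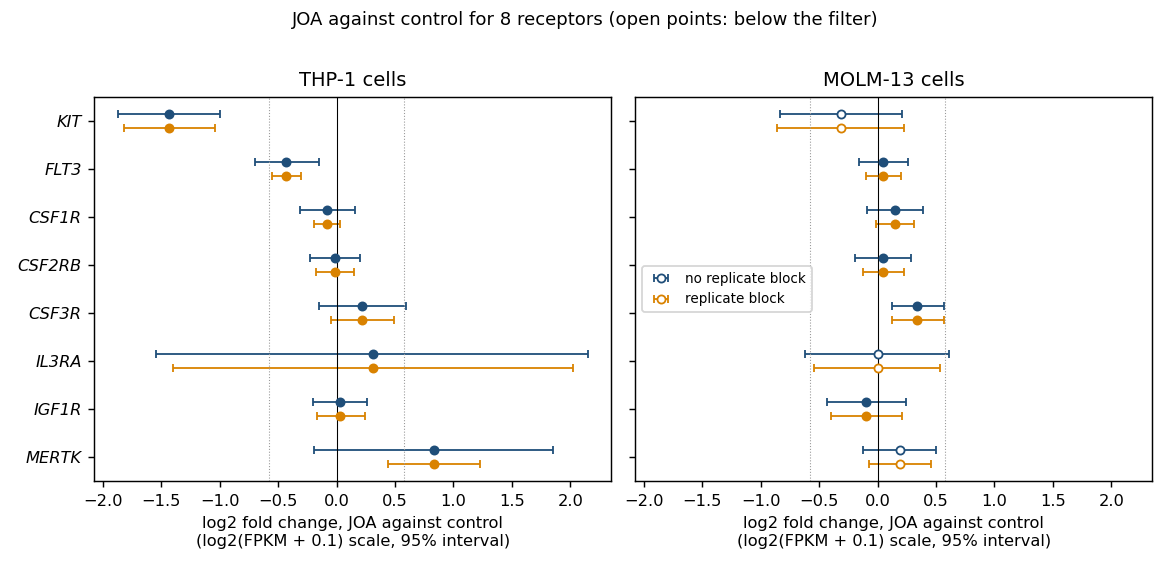
Log2 fold change of JOA against control for the 8 receptors in each line, on the log2(FPKM + 0.1) scale, with 95% intervals by limma without (blue) and with (orange) the replicate block; open points lay below the filter, and dotted lines mark 0.58 in size. In THP-1 cells the interval of KIT lies beyond the dotted line at -0.58, that of FLT3 lies below 0, and that of MERTK leaves 0 with the block.

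The responses of the lines were also compared directly, as the interaction of line and treatment over all 12 libraries. For FLT3 the THP-1 response minus the MOLM-13 response was -0.48 (SE 0.16, limma adjusted p = 0.545, and 0.0762 with the block), and for CSF1R it was -0.23 (SE 0.16, adjusted p = 0.84). CSF3R, CSF2RB and IGF1R lay between -0.13 and 0.13. None of these 5 receptors passed, and of all 12626 genes 0.0% passed without the block and 0.0475% with it, while 7.24% had an unadjusted p under 0.05. KIT, MERTK and IL3RA were below the filter in MOLM-13 cells, and their terms cannot tell a smaller response there from one hidden by the low level. The fitted terms were -1.12 for KIT (adjusted p = 0.46) and 0.64 for MERTK (adjusted p = 0.874), and with a pseudocount of 0.01 they were -0.84 and -0.03.

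The ligands of the receptors were examined in the same libraries, and none of the 4 tested of 12 listed was called with JOA in either line. The values of the MERTK, KIT and FLT3 ligands that follow were chosen after they were seen. In THP-1 cells GAS6, a ligand of MERTK, was at 42.0, 40.3 and 42.6 FPKM in control and at 29.5, 31.8 and 29.5 FPKM with JOA. Its groups did not overlap, as in 8.81% of all genes tested with JOA lower. The log2 fold change of GAS6, -0.46 (SE 0.05, limma adjusted p = 0.0394, and 0.0662 to 0.175 with any 1 library left out), was under the fold threshold. PROS1, which encodes protein S, was at 10.4 ± 0.259 and 12.4 ± 0.0983 FPKM (SD, n = 3), and its log2 fold change was 0.24 (SE 0.05, adjusted p = 0.0818, and 0.0273 with the block). These ligands of MERTK thus lay on opposite sides of their controls.

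KITLG, which encodes stem cell factor, the ligand of KIT, was at 2.19 ± 0.39 FPKM in THP-1 control and 2.41 ± 0.147 FPKM in JOA cells (SD, n = 3, limma adjusted p = 0.633). In MOLM-13 control cells KITLG was at 0.116 ± 0.0232 FPKM, lower than in THP-1 control cells by 3.40 on the log2 scale (SE 0.17, adjusted p = 7.74e-07), or by 1.51 with a pseudocount of 1. FLT3LG, the FLT3 ligand, was at 0.164 ± 0.0598 FPKM in THP-1 and 0.185 ± 0.0493 FPKM in MOLM-13 control cells, and was not called with JOA in either line. In MOLM-13 cells GAS6 was at 74.6, 56.1 and 70.4 FPKM in control and at 97.1, 67.3 and 78.3 FPKM with JOA. These groups overlapped and GAS6 was not called (log2 fold change 0.26, limma adjusted p = 0.288 with the block). The interaction of line and treatment for GAS6 was -0.72 (SE 0.17, limma adjusted p = 0.387, and 0.0326 with the block). It thus passed with the block only, where 6 of 12626 genes (0.0475%) did, and line and dose cannot be told apart in it.

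The signaling genes downstream of the receptors were counted in THP-1 cells against the 0.134% of all genes called without the block and 1.27% with it, so that few or no calls are what lists of these sizes hold at the share of all genes. Of 34 adaptors, kinases and STATs, such as JAK2, STAT5A and GRB2, all 34 were tested and 0 were called with or without the block, with a median log2 fold change of 0.02, the same as that of all genes. Of 15 partner and related receptors, 9 were tested and 0 were called, with a median of 0.08. Of 21 inhibitors of receptor signaling, 1 was called, SLA2, which encodes an adaptor protein (SLAP2) that helps CBL lower receptor levels. SLA2 was at 0.829, 0.825 and 1.08 FPKM in control and at 0.34, 0.344 and 0.386 FPKM with JOA, and it fell by 1.14 on the log2 scale (SE 0.15, limma adjusted p = 0.0394). Like that of KIT, the call of SLA2 was lost with any 1 library left out (adjusted p = 0.0754 to 0.217), where 0 to 1 of all genes were called. It was also lost with a pseudocount of 1, at -0.49, and without the trend (adjusted p = 0.0846). With the block SLA2 had an adjusted p of 0.00838, and of 0.00823 to 0.0131 with any 1 pair left out. The 21 inhibitors had a median of 0.04.

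Of 19 genes that STAT5, AKT or ERK signaling is known to induce, 0 were called in THP-1 cells without the block and 2 with it, both higher, where 0.637% of all genes were called higher. EGR1, an immediate early gene of ERK signaling, was at 2.99, 3.48 and 3.88 FPKM in control and at 4.82, 5.33 and 6.64 FPKM with JOA. Its groups did not overlap, as in 1857 of 12712 genes with JOA higher. The log2 fold change of EGR1 was 0.68 (SE 0.14, limma adjusted p = 0.0805, and 0.00659 with the block). ID1 was at 13.5, 6.5 and 26.0 FPKM in control and at 17.2, 17.6 and 39.2 FPKM with JOA, groups that overlapped (log2 fold change 0.79, adjusted p = 0.47, and 0.0405 with the block). The paired call of ID1 was lost without pair 2, at 0.47, and that of EGR1 was kept without any 1 pair. At any fold, 5 of the 19 genes were higher and 1 was lower with an adjusted p under 0.05 in the paired fit, where 5.37% and 2.69% of all genes were, and the median of the list was 0.03.

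Of 19 transcription factors known to act on KIT or CSF1R, 17 were tested and 0 were called in THP-1 cells with or without the block, with a median log2 fold change of 0.04. GATA2, an activator of KIT in progenitor and mast cells, was at 3.94 ± 0.527 and 4.73 ± 1.06 FPKM (SD, n = 3, limma adjusted p = 0.497). MYB was at 99.2 ± 4.36 and 103 ± 3.81 FPKM (adjusted p = 0.638), and SPI1, which encodes PU.1, an activator of CSF1R, was at 39.9 ± 1.9 and 44.9 ± 4.3 FPKM (adjusted p = 0.315). In MOLM-13 cells 0 genes of these 6 lists were called in either fit, and their medians lay between -0.05 and 0.06.

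**Figure D5:**
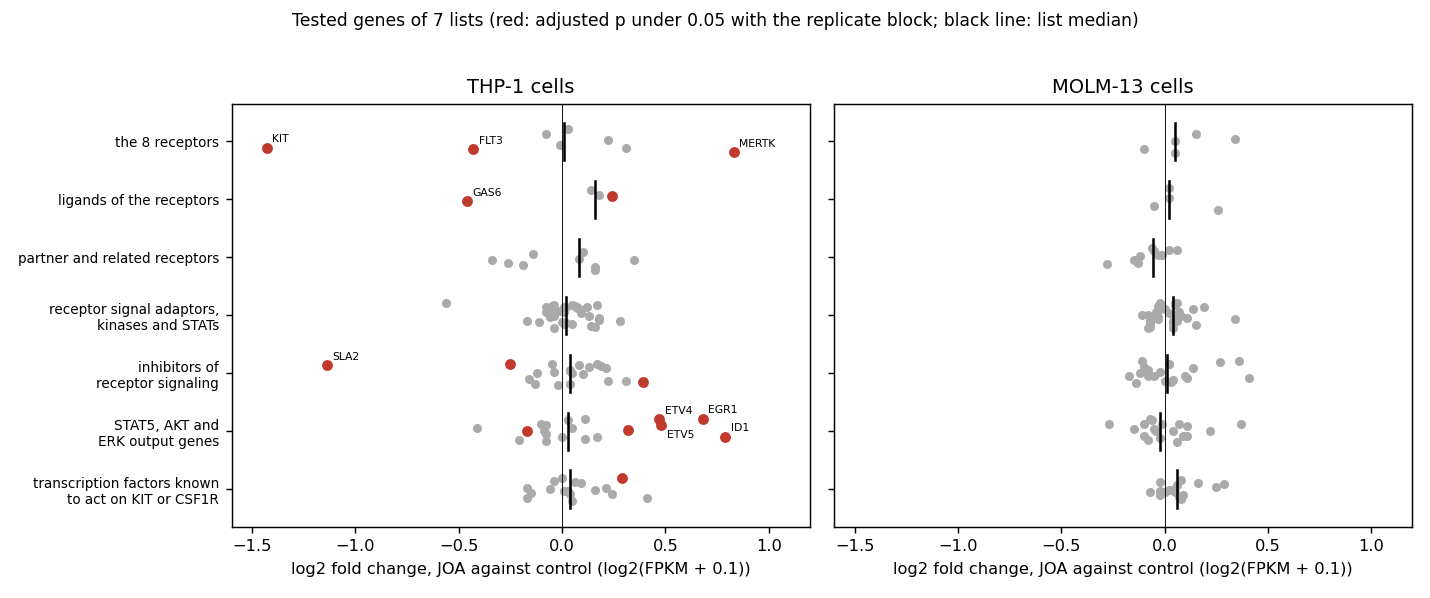
Log2 fold change of JOA against control for every tested gene of the 8 receptors and of 6 lists around them, in each line, on the log2(FPKM + 0.1) scale; red points have an adjusted p under 0.05 with the replicate block, and the black line is the list median. The medians stay near 0 in both lines, red points occur in the THP-1 panel, and KIT and SLA2 lie farthest to the left.

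The genes whose pattern over the 12 libraries was most like KIT, after the mean of each line was subtracted, were ANKRD27 (Pearson r = 0.941), PTMA (0.94), HADH (0.939), RBM26 (0.934) and RBMXL1 (0.925), out of 11355 genes. These were far more abundant than KIT and moved less. PTMA was at 744 to 865 FPKM in THP-1 control and 631 to 675 FPKM in JOA libraries, and HADH had a log2 fold change of -0.43. For MERTK they were ALOX5AP (0.917), CHURC1 (0.912), KANSL3 (0.912), CD209 (0.907) and SLC6A6 (0.905). ALOX5AP, which encodes the 5-lipoxygenase activating protein, was at 22.4, 29.7 and 39.1 FPKM in THP-1 control and at 35.6, 41.1 and 57.2 FPKM in JOA libraries, in which replicate 1 was lowest and replicate 3 highest, as for MERTK. The libraries share their line, treatment and replicate numbers, so these correlations only describe likeness.

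Markers of the labelled cells were present. Of 10 myeloid blast and monocytic markers, 9 had a mean of at least 1 FPKM in every group, and CD14 did not. In THP-1 cells 0 of the 10 were called without the block and 1 with it, MPO, the myeloperoxidase of immature myeloid cells, which was at 28.3, 19.1 and 13.2 FPKM in control and at 18.5, 13.2 and 7.68 FPKM with JOA (log2 fold change -0.64, limma adjusted p = 0.399, and 0.00659 with the block). The share of all genes called with the block was 1.27%, and MPO was under the fold threshold, at -0.57, without pair 3. At any fold in the paired fit, 3 other markers were higher, CD68 by 0.36 (adjusted p = 0.0254), CD33 by 0.29 (adjusted p = 0.0342) and FCGR1A by 0.23 (adjusted p = 0.0309), and their groups did not overlap. Of all genes, 5.37% were higher at that threshold, and 1857 of 12712 were higher with groups that did not overlap. Of the 10 markers, 6 had a log2 fold change above 0 and 4 below it, MPO, LYZ (-0.18), MEIS1 (-0.17) and HOXA9 (-0.04). In MOLM-13 cells 0 of the 10 were called in either fit, and 7 had a log2 fold change above 0 and 3 below it. There CD68 was higher by 0.38 and CD33 by 0.14 (limma adjusted p with the block 0.244 and 0.356). Their groups did not overlap, as in 5.1% of all genes tested in that line with JOA higher. Mast cells are rich in KIT, and the summed level of 5 mast cell markers was 0.282 to 0.355 FPKM in THP-1 control and 0.293 to 0.468 FPKM in JOA libraries, with CPA3 listed at 0 in all of them. The 6 lymphoid markers summed to 4.16 to 7.68 and 4.89 to 7.6 FPKM in the same groups. Most of this was NKG7, at 4.77 ± 1.61 and 5.18 ± 1.55 FPKM (SD, n = 3). The 5 genes listed as stromal and epithelial markers summed to 25.4 to 27.0 and 29.7 to 34.2 FPKM. Most of this was PECAM1, at 24.1 ± 1.99 and 30.8 ± 2.61 FPKM, so the sum was not read as a sign of other cells. PECAM1 was higher by 0.35 with JOA (limma adjusted p = 0.0978, and 0.0467 with the block), with groups that did not overlap. COL1A1, at 0.476 and 0.185 FPKM, and KRT18, at 1.53 and 0.447 FPKM, had lower means with JOA. None of NKG7, PECAM1, COL1A1 and KRT18 was called. In MOLM-13 cells the lymphoid markers summed to 29.5 to 31.3 FPKM in control and 27.7 to 30.2 FPKM in JOA libraries, most of it NKG7. The stromal and epithelial list summed to 22.3 to 23.8 and 22.6 to 26.5 FPKM there, mostly PECAM1 and KRT18. The part of these markers in the results for KIT, FLT3 and MERTK was not tested.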

How the data were processed

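The data are 12 mRNA-seq libraries. The authors deposited FPKM values per gene, from paired-end sequencing of stranded mRNA libraries, and no scaling beyond gene length and mapped fragments is stated. Trimmomatic, HISAT2, Cufflinks, HTSeq and the build hg38 are named in the submitters' processing notes. The table holds 20030 rows, of which 3488 are at 0 in every library and 27 have names that read as dates. The sample records and the methods give 48 h of treatment, and figure legends of the study give a longer time.

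Groups came from the sample records. The filter kept genes whose mean FPKM reached 0.1 in the libraries compared, and log2(FPKM + 0.1) was tested with limma 3.58.1 in R 4.3.3 (lmFit, eBayes with a trend), two-sided, with Benjamini-Hochberg adjustment over all genes tested. A call needed an adjusted p under 0.05 and a log2 fold change of at least 0.58 in size, or the adjusted p alone for the interaction. FPKM are not counts, so no count model was used. For receptors below the filter, the fit was repeated on every gene not at 0 throughout. Exact permutation tests of 3 against 3 libraries cannot go below 0.1.

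The same-numbered JOA and control libraries deviated together from their group means (r = 0.264 to 0.398 in MOLM-13 and 0.139 to 0.319 in THP-1 cells), so the fit with the replicate number as a block is given where it changes a call. The sources give no shared culture or day for a number. The code was tested on simulated data, where the estimate of relative depth held within its search range of 0.67 to 1.49 and failed for a library outside it. Alternatives covered pseudocounts, filters, scalings, the trend, the block, the thresholds and leaving out libraries.

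The receptors and lists were chosen with earlier results of these data known, among them the fall of KIT, so nothing here is independent support for it. All 8 receptors were named in each comparison. From the lists, genes called with or without the block were named, and the 5 genes most correlated with each called receptor. Ligands, GATA2, MYB, SPI1, JAK2, STAT5A and GRB2 were named after their values were seen. RefSeq promoters were cut at GENCODE exons on GRCh38. The result of 1 marker list is not reported here.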

Additional observations from a re-analysis of the deposited data

How the results depend on the processing

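In THP-1 cells the number of genes called was 17. It was 8 with a pseudocount of 1, 0 without the filter, 11 with upper-quartile scaling, 1 without the trend, 161 with the replicate block, 51 in 1 fit on all 12 libraries, 38 without the fold threshold, 241 with unadjusted p-values and 0 to 1 with any 1 library left out. The 1 receptor called, KIT, was joined by MERTK with the block, giving 2, and 0 receptors were called without the filter, without the trend or with any 1 library left out (0 to 0). Leaving out 1 replicate pair from the paired fit, an alternative chosen after seeing the data, gave 162 to 222 genes and 1 to 2 receptors. The paired fit changed no other call on a receptor. In MOLM-13 cells 0 genes were called, 1 without the filter and 56 with unadjusted p-values. For the interaction, 0 genes passed, 1 with a pseudocount of 1, 3 without the filter and 6 with the replicate block. With unadjusted p-values 914 genes (7.24%) passed, FLT3 among them. KIT is not counted there, since it passed the filter only through THP-1 cells. Between the untreated lines, 9000 genes passed without the fold threshold instead of 5559, and 5448 to 5718 with any 1 library left out. There the replicate numbers share only a number (r = 0.0698 to 0.131), and the block gave 5593 calls.

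Several differences that were not called changed sign. In THP-1 cells CSF2RB was at 0.01 as TPM and -0.09 to 0.06 over the fits without 1 library, IGF1R at -0.01 with upper-quartile scaling, -0.02 with quantile normalization and -0.05 to 0.1 without 1 library, and CSF1R at -0.16 to 0.03. With 1 pair left out of the paired fit, CSF2RB was at -0.05 to 0.06, IGF1R at -0.05 to 0.1, and FLT3 in MOLM-13 cells at -0.04 to 0.1. FLT3 in MOLM-13 cells was at -0.05 to 0.12 without 1 library. In the interaction, MERTK was at -0.03 with a pseudocount of 0.01, CSF3R ranged from -0.33 to 0.01 and CSF2RB from -0.16 to 0.01 without 1 library. IL3RA between the untreated lines ranged from -0.83 to 0.06. The cause of these changes was not tested. With a minimum mean of 1 FPKM, MERTK and IL3RA in THP-1 cells, IGF1R in MOLM-13 cells, and KIT, MERTK and IL3RA between the lines were not tested. Total depth is unknown, which limits what can be read from KIT, MERTK and IL3RA in MOLM-13 cells.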
